A study of Mus musculus with 12 samples.

Results

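Inflammasome and necroptosis genes were followed through mouse tumours treated with cisplatin, brivanib or both drugs. The set held 10 of the 53801 genes in the deposited table, taken by name: the sensors Naip1, Naip2, Naip5 and Naip6, the proteases Casp1, Casp4 and Casp8, the pore former Gsdmd, the kinase Ripk3 and the membrane-breaking protein Mlkl. All 10 were found and all 10 were among the 14246 genes tested, which had a mean of at least 1 FPKM over the 12 libraries. FPKM stands for fragments per kilobase of transcript, scaled to a total for each library. The members were chosen by name with their FPKM in the 4 groups, and the differences between them, already known, so these differences are described here and carry no p-value.

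Female C57BL/6 mice aged 6 to 8 weeks carried flank tumours of LLC (Lewis lung carcinoma), a line that began as a lung tumour in that strain. Each flank received 3000000 cells in Matrigel, and 6 mice per treatment gave 10 to 12 tumours. Every group was treated by injection into the peritoneum, 100 µL at a time, 2 times per week for 4 weeks once tumours measured at least 100 mm3. The groups were vehicle, cisplatin alone (a platinum compound whose adducts link DNA bases), brivanib alone (a kinase inhibitor aimed at receptors for VEGF and FGF) and cisplatin with brivanib, called the combination here, with 3 libraries each. No source used here gives the drug doses. Whether libraries of a group came from different mice is not stated, so the p-values below measure only the spread between these samples, which may share an animal. The tumours were transplants under the skin, and whole pieces were sequenced, so host cells and LLC cells were read together. In such bulk samples fewer cells of a type and less RNA per cell cannot be told apart.

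Inflammasomes are protein platforms that assemble when a sensor meets a microbial product or a sign of damage, and they switch on caspase-1. Mouse NAIP proteins bind bacterial flagellin or parts of secretion systems and then join NLRC4. Caspase-1 matures interleukin-1 beta and interleukin-18, and caspase-1 and mouse caspase-11, the product of Casp4, cut gasdermin D, whose fragment opens pores in the cell membrane (pyroptosis). In necroptosis RIPK3 phosphorylates MLKL, which breaks the membrane, and caspase-8 restrains this route by cutting its kinases.

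The libraries held 17161000 to 30943000 recovered fragments. In brivanib 5, ribosomal-like features took 37.7% of them, against 0.268% to 0.656% in the other 11 libraries, and the FPKM total was 921510 against 471828 to 527657. The 6 lung alveolar markers summed to 0 to 1.165 FPKM per library, with Sftpc, Sftpa1, Scgb1a1 and Nkx2-1 at 0 in all 12, and epithelial and keratinocyte markers summed to 1.80 to 4.50 FPKM.

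The 4 Naip genes lie in 1 cluster on chromosome 13, and the windows before their annotated starts are shown because Naip1 was the member with the widest range over the groups and its transcripts differed by start site. The 4 genes span 308807 bases on GRCm38: Naip1 from 100407764 to 100452869, Naip2 from 100144063 to 100202092, Naip5 from 100211739 to 100246323 and Naip6 from 100281121 to 100317674, all on the minus strand. RefSeq places the starts at 100452864 (Naip1), 100202122 (Naip2), 100247336 (Naip5) and 100316616 (Naip6), which differ from the ends of these spans, so the Naip6 window lies inside its span and the Naip5 window beyond it. The 250 bases before each RefSeq start (GRCm38.p6) are given 5′ to 3′, and capitals mark a run of 11 bases that the Naip1, Naip2 and Naip5 windows share.
Naip1, chr13:100452865-100453114, minus strand: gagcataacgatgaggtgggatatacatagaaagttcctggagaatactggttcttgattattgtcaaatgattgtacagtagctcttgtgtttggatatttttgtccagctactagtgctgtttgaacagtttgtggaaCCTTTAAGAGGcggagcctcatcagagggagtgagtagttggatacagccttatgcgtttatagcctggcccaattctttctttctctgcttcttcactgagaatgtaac
Naip2, chr13:100202123-100202372, minus strand: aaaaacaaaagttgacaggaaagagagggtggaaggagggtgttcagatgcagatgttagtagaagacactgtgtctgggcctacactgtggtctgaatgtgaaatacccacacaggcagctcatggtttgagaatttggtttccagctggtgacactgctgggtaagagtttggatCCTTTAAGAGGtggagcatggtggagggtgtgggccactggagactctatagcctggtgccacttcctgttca
Naip5, chr13:100247337-100247586, minus strand: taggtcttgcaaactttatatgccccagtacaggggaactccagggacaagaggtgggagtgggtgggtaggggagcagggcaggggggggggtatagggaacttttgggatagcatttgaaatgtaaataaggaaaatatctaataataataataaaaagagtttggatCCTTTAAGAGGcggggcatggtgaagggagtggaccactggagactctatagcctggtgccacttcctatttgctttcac
Naip6, chr13:100316617-100316866, minus strand: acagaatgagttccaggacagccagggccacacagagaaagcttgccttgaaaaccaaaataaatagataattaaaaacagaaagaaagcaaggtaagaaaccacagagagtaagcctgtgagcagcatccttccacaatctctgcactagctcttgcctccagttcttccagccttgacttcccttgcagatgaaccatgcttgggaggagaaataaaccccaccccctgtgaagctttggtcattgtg
The shared run was looked for after the windows had been seen. It begins 110 bases before the start in Naip1, 73 in Naip2 and 80 in Naip5, is not in the Naip6 window, and is found on either strand in 30 of 32851 RefSeq windows of 300 bases (0.0913%).

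Casp1 and Casp4 are neighbours as well, 1563 bases apart on chromosome 9, and are shown because both were higher in the cisplatin libraries than in the vehicle libraries. Casp1 spans 5298517 to 5307265 and Casp4 spans 5308828 to 5336783, both on the plus strand. Capitals in the Casp4 window mark a match to the NF-kB consensus, which begins 93 bases before the start.
Casp1, chr9:5298267-5298516, plus strand: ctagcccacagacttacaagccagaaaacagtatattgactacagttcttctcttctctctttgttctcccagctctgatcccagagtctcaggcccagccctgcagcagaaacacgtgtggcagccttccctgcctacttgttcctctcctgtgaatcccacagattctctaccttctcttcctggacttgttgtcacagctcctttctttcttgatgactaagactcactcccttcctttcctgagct
Casp4, chr9:5308599-5308848, plus strand: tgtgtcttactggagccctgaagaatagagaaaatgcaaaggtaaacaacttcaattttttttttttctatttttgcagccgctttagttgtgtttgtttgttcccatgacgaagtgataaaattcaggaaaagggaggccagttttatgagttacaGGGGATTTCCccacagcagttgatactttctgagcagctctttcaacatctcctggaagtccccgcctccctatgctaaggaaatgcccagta
The NF-kB consensus matched 3 of 10 windows of 9 members, namely both windows of Casp4 (RefSeq lists 2 starts) and that of Naip5, against 4.505% of all windows. The Casp4 windows overlap and hold the same match, so these are 2 sites in 2 genes; the consensus was searched after the Casp4 window had been seen. The interferon-linked motifs TTCNNNGAA (GAS) and the ISRE core matched 0 of the 10 windows, against 8.298% and 3.443% of all windows. Both strands were searched, and Gsdmd had no window in the table.

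Naip1 encodes a sensor of the needle protein of bacterial secretion systems. Its level was 0.693, 0.387 and 0.381 FPKM in vehicle libraries 2, 3 and 5 and 2.07, 1.31 and 1.99 FPKM in cisplatin libraries 1, 2 and 3. It was 0.356, 0.238 and 0.313 FPKM in brivanib libraries 2, 3 and 5, and 2.92, 7.35 and 3.16 FPKM in combination libraries 2, 3 and 4. The 6 libraries with cisplatin were all above the 6 without it, and the 3 combination libraries were all above the 3 with cisplatin alone. Group means were 0.487 ± 0.178 FPKM for vehicle, 1.79 ± 0.418 for cisplatin, 0.302 ± 0.0596 for brivanib and 4.48 ± 2.49 for the combination (SD, n = 3 each). The ratio of mean FPKM to vehicle was 3.67 with cisplatin and 9.19 with the combination, and the combination had 14.8 times the mean of brivanib alone.

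On the log2(FPKM + 1) scale, where low genes appear to change less than they do, Naip1 differed from vehicle by 0.90 ± 0.27 (SE) with cisplatin, -0.19 ± 0.27 with brivanib and 1.80 ± 0.27 with the combination. Brivanib libraries were all slightly below the vehicle libraries, while adding brivanib to cisplatin went with a difference of 0.90 ± 0.27 upward. Combination library 3 held the highest value. Without it the combination differed from cisplatin by 0.55 and from vehicle by 1.45. The gene had 40 to 89 fragments in the vehicle libraries, 164 to 224 in cisplatin, 29 to 42 in brivanib and 289 to 871 in the combination.

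**Figure D1:**
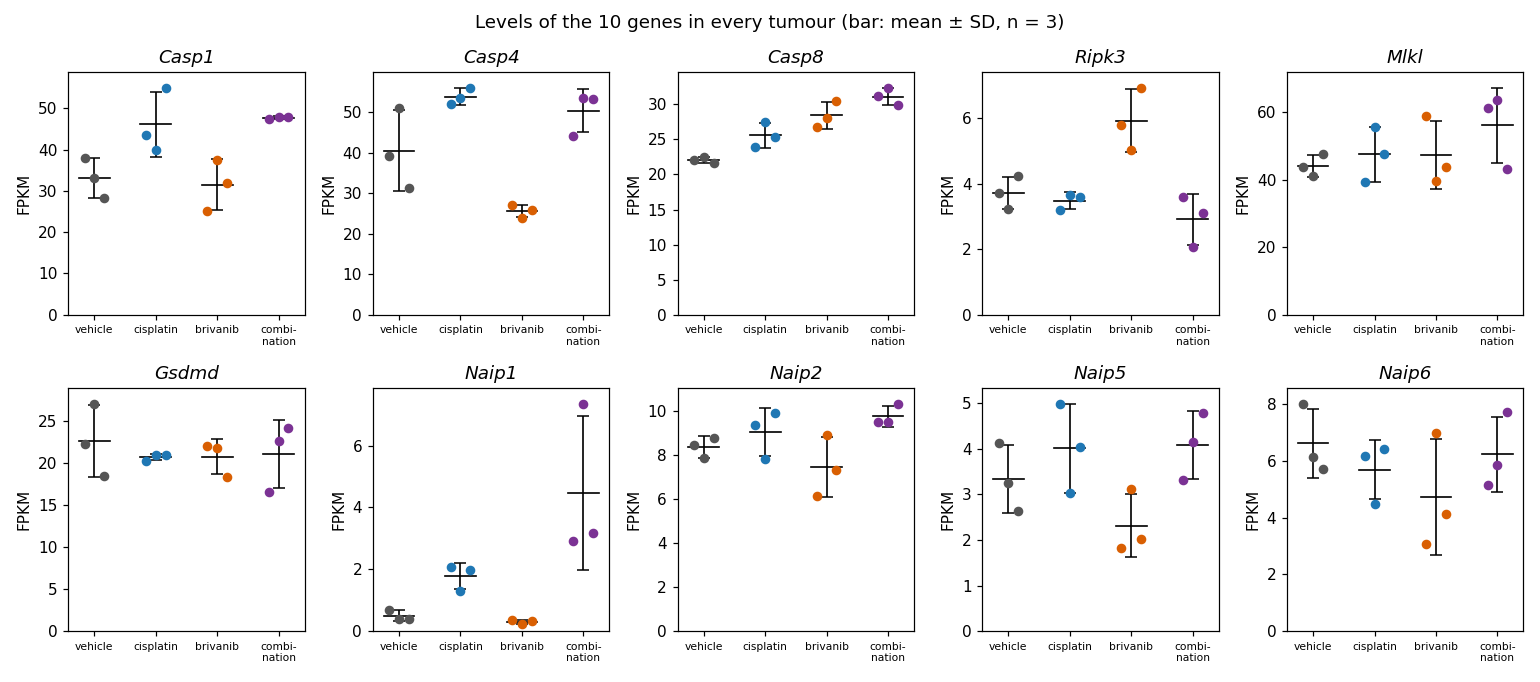
FPKM of the 10 genes in each of the 12 libraries, by treatment group; points are libraries, the long line is the mean and the error bar the SD (n = 3). Naip1 separates the 6 libraries with cisplatin (1.31 to 7.35 FPKM) from the 6 without (0.238 to 0.693 FPKM), Ripk3 is highest in brivanib, and Gsdmd overlaps in all groups.

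The transcripts of Naip1 showed where its reads were placed. Its 4 annotated transcripts begin in 2 places, 6353 bases apart: upstream at 100452864 (ENSMUST00000222155, with a partial transcript from 100452869), and downstream at 100446511 (ENSMUST00000022142, with a transcript of the nonsense-mediated decay class from 100446461). The full-length coding transcripts of both sites share the start codon at 100444735 to 100444737 and the stop codon, so the leader of the RNA differs and the coding frame begins at the same place. The window printed above for Naip1 ends at the upstream site.

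Transcripts of the upstream site were at 0 to 0.0555 FPKM in vehicle and 0 to 0.0334 FPKM in brivanib, against 0.483 to 1.89 FPKM in cisplatin and 2.66 to 7.34 FPKM in the combination. Fragments placed on them numbered 0 to 7 per vehicle library, 0 to 4 per brivanib library, 48 to 203 per cisplatin library and 239 to 870 per combination library. Downstream transcripts were at 0.381 to 0.637 FPKM in vehicle, 0.205 to 0.356 in brivanib, 0.133 to 1.51 in cisplatin and 0.008 to 0.508 in the combination. The upstream site thus held at most 14.02% of Naip1 FPKM in any library without cisplatin. It held 83.9% to 99.9% in the combination and 91.3%, 89.8% and 24.3% in cisplatin 1, 2 and 3. In cisplatin 3, 1.49 FPKM sat on the decay-class transcript, which was at 0 in the other 11 libraries. RSEM, a program named in the submitters' processing notes, divides fragments between isoforms and near-identical copies, so the split is an estimate. Recovered values below 100 fragments were whole numbers, so the deposited values do not show how that division was made. The full-length coding transcripts of both sites differ almost only at their beginning. The upstream one, of 5361 bases, has a first exon of 67 bases. Its second exon of 42 bases lies within the first exon of 206 bases downstream. Most fragments counted above therefore fall in shared sequence, and few bases tell the 2 sites apart.

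**Figure D2:**
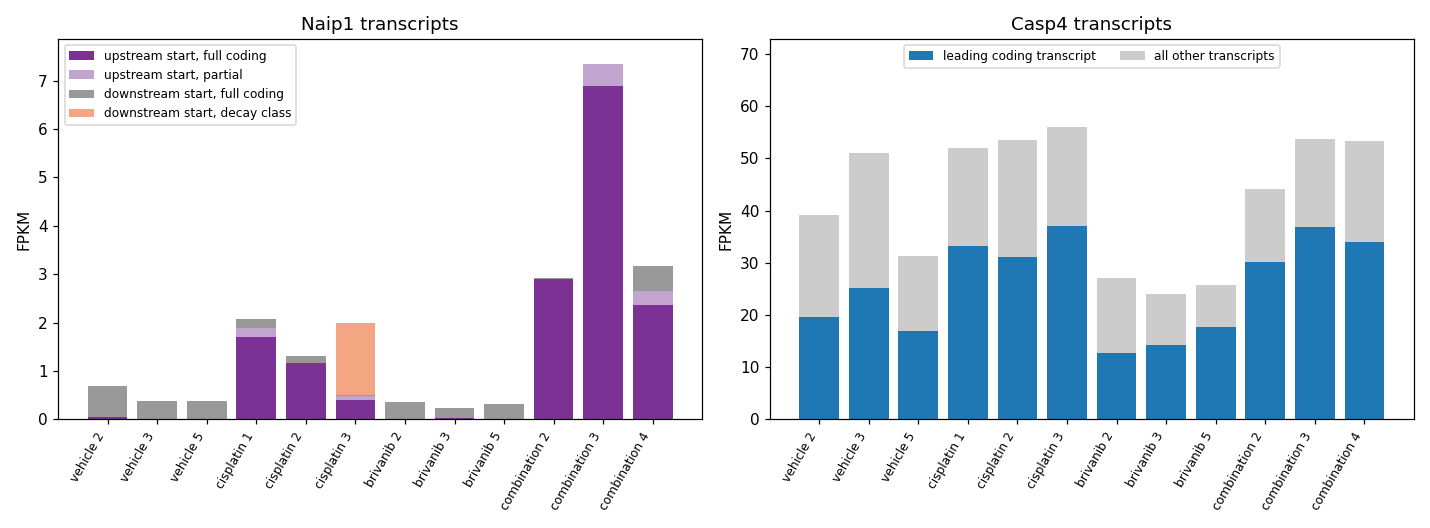
FPKM of the annotated transcripts of Naip1 (left) and Casp4 (right) in each library, stacked. Naip1 upstream-start transcripts reach 2.66 to 7.34 FPKM in the combination and at most 0.0555 FPKM without cisplatin; the leading coding transcript of Casp4 is at 31.1 to 37.1 FPKM in cisplatin and 12.8 to 17.7 FPKM in brivanib.

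The other Naip members differed less between groups than Naip1. Naip2, which senses the inner rod of secretion systems, was at 8.47, 7.86 and 8.81 FPKM in vehicle, 9.40, 7.85 and 9.94 in cisplatin, 6.17, 8.91 and 7.33 in brivanib and 9.50, 9.52 and 10.3 in the combination. All 3 combination libraries lay above all vehicle and all brivanib libraries, with differences of 0.20 ± 0.13 and 0.36 ± 0.13 on the log2(FPKM + 1) scale. Naip2 fragments were divided over 3 transcripts, and the leading one, ENSMUST00000167986, held 0% to 63.6% of the gene's FPKM in brivanib and 58.0% to 62.1% in the combination. Naip5, a flagellin sensor, was at 4.13, 3.25 and 2.64 FPKM in vehicle, 4.98, 3.03 and 4.03 in cisplatin, 1.81, 3.11 and 2.02 in brivanib and 3.31, 4.16 and 4.78 in the combination. Its combination libraries were all above its brivanib libraries (0.63 ± 0.21), and its other groups overlapped. Naip6, the second flagellin sensor, ranged from 5.72 to 8.01 FPKM in vehicle, 4.49 to 6.43 in cisplatin, 3.06 to 7.002 in brivanib and 5.16 to 7.71 in the combination, and all groups overlapped.

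The Naip genes are similar in sequence, which bears on how exactly reads can be assigned. Of the stretches of 100 bases in the leading transcript, 13.9% for Naip1, 4.93% for Naip2, 16.2% for Naip5 and 6.37% for Naip6 are also found in another gene. For Casp1, Casp4, Ripk3, Mlkl and Gsdmd the share is 0, and for Casp8 it is 0.845%. The gene closest to Naip1 in this count is Naip3, with 10.9% of the stretches. Naip3 was below the filter and not tested, at 0.121 to 0.235 FPKM in vehicle, 0.532 to 0.652 in cisplatin, 0.136 to 0.234 in brivanib and 0.643 to 0.972 in the combination. Its 6 libraries with cisplatin were thus also all above the 6 without it, and how far shared reads enter either gene was not tested.

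Casp1, the interleukin-1 beta converting enzyme, was at 37.9, 33.1 and 28.3 FPKM in vehicle and 43.6, 39.8 and 55.0 FPKM in cisplatin. It was at 25.1, 37.4 and 31.9 FPKM in brivanib and 47.3, 47.9 and 48.0 FPKM in the combination. All 6 libraries with cisplatin were above all 6 without it, from 39.8 against at most 37.9 FPKM, a narrow gap. Casp1 and Naip1 were the members separated in this way, as were 4.08% of all genes tested (3.45% higher); no member separated the 6 libraries with brivanib from the 6 without (0.288% of genes). The log2(FPKM + 1) difference was 0.46 ± 0.16 for cisplatin and 0.52 ± 0.16 for the combination against vehicle, and 0.60 ± 0.16 for the combination against brivanib. Brivanib differed from vehicle by -0.08 ± 0.16 and the combination from cisplatin by 0.06 ± 0.16, with overlap in both.

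Casp4, the receptor for intracellular bacterial lipopolysaccharide, was at 39.2, 51.1 and 31.3 FPKM in vehicle and at 52.1, 53.5 and 56.1 FPKM in cisplatin. It was at 27.1, 24.0 and 25.8 FPKM in brivanib and 44.2, 53.6 and 53.3 FPKM in the combination. Brivanib alone held the 3 lowest libraries, a pattern not counted over all genes, and cisplatin 3 was the highest. The brivanib libraries were all below vehicle and the cisplatin libraries all above it, while cisplatin and the combination overlapped. Against vehicle the differences were 0.43 ± 0.15 with cisplatin, -0.62 ± 0.15 with brivanib and 0.33 ± 0.15 with the combination, the last with overlap. The combination was 0.94 ± 0.15 above brivanib alone and -0.10 ± 0.15 from cisplatin alone. The leading coding transcript, ENSMUST00000027012, was at 20.6 ± 4.12 FPKM in vehicle, 33.8 ± 3.05 in cisplatin, 14.9 ± 2.51 in brivanib and 33.7 ± 3.37 in the combination (SD, n = 3). The other Casp4 transcripts together were at 19.98 ± 5.89, 20.1 ± 1.98, 10.7 ± 3.25 and 16.7 ± 2.68 FPKM in the same order.

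Casp8, the protease that starts death receptor apoptosis and holds back necroptosis, was at 22.1, 22.5 and 21.6 FPKM in vehicle and 24.0, 27.5 and 25.3 FPKM in cisplatin. It was at 26.7, 28.1 and 30.5 FPKM in brivanib and 31.2, 32.3 and 29.8 FPKM in the combination. Every treated library was above every vehicle library, by 0.20 ± 0.09 with cisplatin, 0.35 ± 0.09 with brivanib and 0.48 ± 0.09 with the combination. This pattern was not counted over all genes, and shares for pairs of groups are given below. The combination was also above cisplatin alone (0.27 ± 0.09), while it overlapped brivanib alone (0.13 ± 0.09). Isoforms of different length turn the same fragments into different FPKM, and the split of Casp8 between its isoforms moved from library to library. The shorter transcript ENSMUST00000165549 took 0% to 29.4% of Casp8 FPKM in vehicle and 8.96% to 68.6% in brivanib. Fragments of the whole gene per 1000000 of each library's scaling total, which do not use that split, were 53.8 to 57.0 in vehicle, 62.0 to 65.4 in cisplatin, 64.6 to 71.0 in brivanib and 68.7 to 83.6 in the combination. The vehicle libraries stayed below all treated libraries on that scale, but with the most abundant transcript alone the difference from vehicle was -0.19 for brivanib and 0.12 for the combination, and that of the combination from cisplatin was -0.05.

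**Figure D3:**
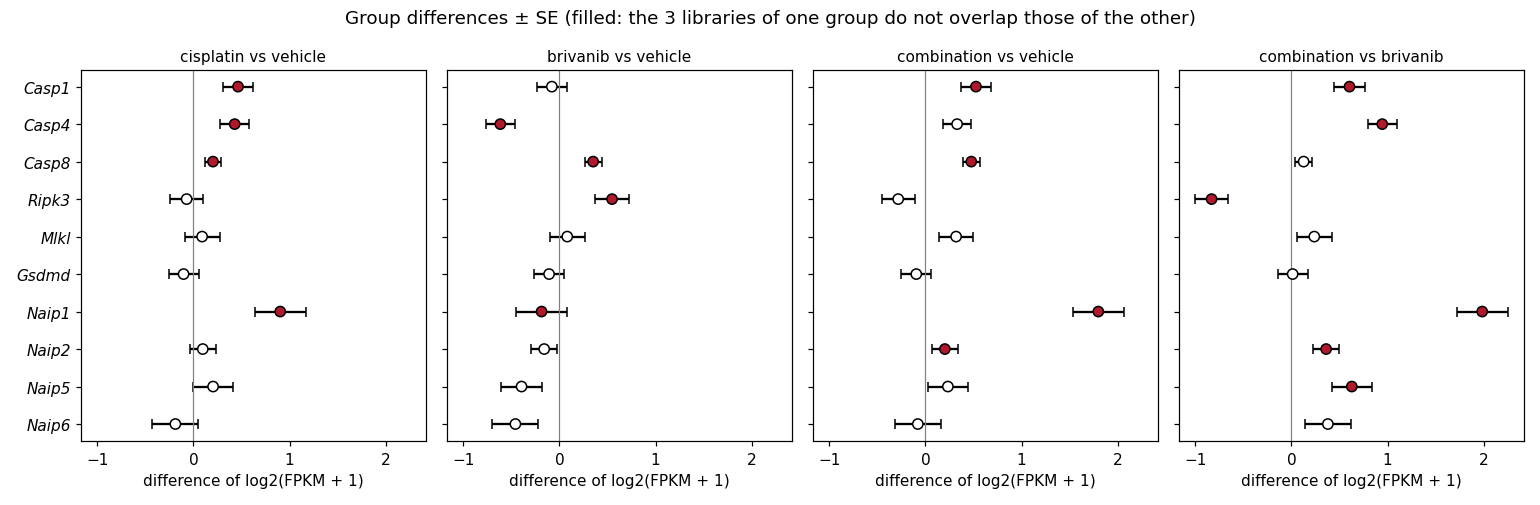
Differences of mean log2(FPKM + 1) between groups for the 10 genes, with SE, in 4 comparisons; filled points are genes whose 3 libraries in one group do not overlap those of the other. Naip1 has the widest differences (0.90, 1.80 and 1.98 where cisplatin or the combination comes first), Casp4 and Ripk3 differ between combination and brivanib by 0.94 and -0.83, and Gsdmd stays near 0.

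Ripk3, the kinase of necroptosis, was at 3.71, 3.24 and 4.23 FPKM in vehicle and 3.18, 3.67 and 3.60 FPKM in cisplatin. It was at 5.81, 5.02 and 6.93 FPKM in brivanib and 3.59, 2.07 and 3.10 FPKM in the combination. Brivanib alone was above all other groups with no overlap, a pattern not counted over all genes, and the remaining 3 groups overlapped. Brivanib stood 0.55 ± 0.17 above vehicle, and the combination differed from brivanib by -0.83 ± 0.17 and from vehicle by -0.28 ± 0.17. The brivanib effect with cisplatin minus that without it was -0.76 ± 0.24.

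Macrophage, fibroblast and pan-leukocyte markers were high in brivanib as well. The 15 macrophage markers summed to 746 to 1009 FPKM in brivanib, 300 to 483 in vehicle, 311 to 623 in cisplatin and 264 to 724 in the combination. The 10 fibroblast markers summed to 1685 to 2253 FPKM in brivanib, 757 to 1228 in vehicle, 585 to 1139 in cisplatin and 358 to 846 in the combination. On both lists brivanib did not overlap the other groups. The 6 pan-leukocyte markers summed to 150 to 187 FPKM in brivanib, 97.6 to 116 in vehicle, 108 to 131 in cisplatin and 88.0 to 154 in the combination, so here brivanib and the combination overlapped. With the pan-leukocyte score as a covariate, Ripk3 differed by 0.46 between brivanib and vehicle and by -0.74 between the combination and brivanib. That score, the mean log2(FPKM + 1) of the markers, was 4.58 to 4.78 in brivanib. It was 3.98 to 4.18 in vehicle and 3.81 to 4.57 in the combination. Brivanib overlapped neither on this scale, so both adjusted values are extrapolations. The part of the fibroblast and macrophage markers in the Ripk3 differences was not tested.

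Mlkl, the executioner of necroptosis, was at 43.8, 41.2 and 47.7 FPKM in vehicle, 39.3, 55.5 and 47.8 in cisplatin, 58.8, 39.6 and 44.0 in brivanib and 61.3, 63.8 and 43.3 in the combination. Its groups overlapped in all 5 pairwise comparisons, with differences of 0.08 ± 0.18 to 0.32 ± 0.18. Gsdmd, the substrate of both inflammatory caspases, lay between 16.6 and 27.1 FPKM in all 12 libraries. Its differences ranged from -0.11 ± 0.16 to 0.01 ± 0.16, and its groups overlapped as well. Of the members, by FPKM (a level per length), Mlkl (41.2 to 47.7 FPKM), Casp4 and Casp1 were highest in vehicle, with overlapping ranges for Casp4 and each of the other two, and Naip1 was lowest.

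**Figure D4:**
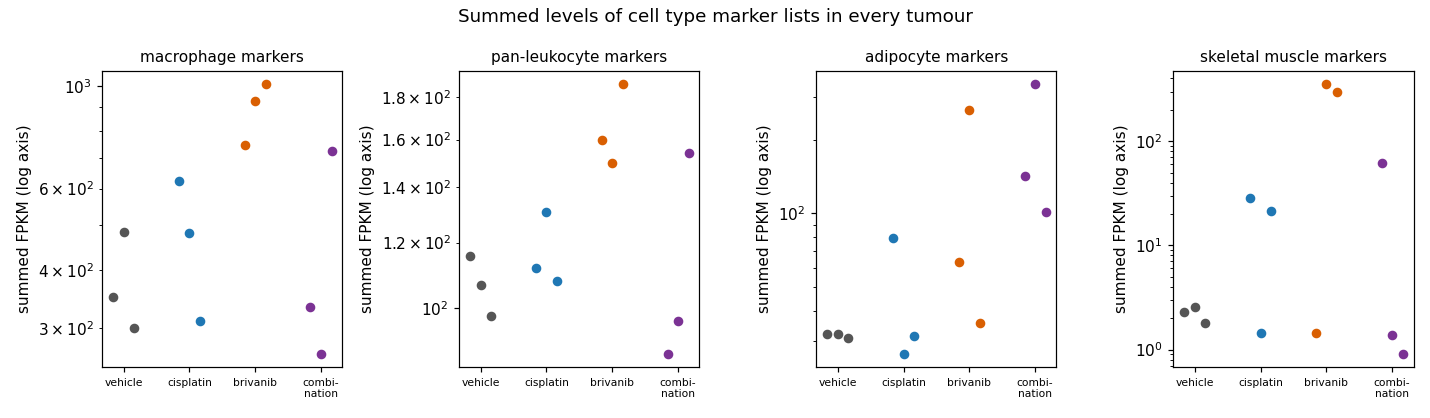
Summed FPKM of 4 marker lists in each library, on a log axis, by treatment group. Macrophage sums are highest in brivanib (746 to 1009 FPKM), pan-leukocyte sums in brivanib (150 to 187 FPKM) overlap those of the combination (88.0 to 154 FPKM), and adipocyte sums are 102 to 338 FPKM in the combination against 30.9 to 32.2 FPKM in vehicle. Muscle sums are uneven within brivanib, at 1.45, 352 and 298 FPKM in brivanib 2, 3 and 5, against 1.82 to 2.53 FPKM in vehicle.

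The test run on all 14246 genes (limma, two-sided, Benjamini-Hochberg adjusted p below 0.05) called Naip1 and Casp8 higher in the combination than in vehicle, where it called 2.34% of all genes, 1.82% as higher and 0.519% as lower. Between the combination and brivanib it called Naip1 and Casp4 higher and Ripk3 lower, where it called 3.87% of all genes, 2.02% as higher and 1.85% as lower. The members passed it in no other comparison. In those it called 0.19% of genes for cisplatin against vehicle (0.119% higher, 0.0702% lower), 1.81% for brivanib against vehicle (1.71% higher, 0.105% lower), 0% for the combination against cisplatin and 0.14% for the difference between the brivanib effects, all lower. Since the members were chosen with these results known, nothing is read from their share of calls. Naip1 entered the test through the cisplatin and combination libraries, since its means in vehicle and brivanib were below 1 FPKM.

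Counting groups that do not overlap, cisplatin had 4 members higher than vehicle (Casp1, Casp4, Casp8 and Naip1), where 23.7% of all genes did not overlap, 17% higher and 6.72% lower. Brivanib had Casp8 and Ripk3 higher and Casp4 and Naip1 lower, where 15.9% did not overlap, 8.95% higher and 6.9% lower. The combination had Casp1, Casp8, Naip1 and Naip2 above vehicle, where 26.5% did not overlap, 17.2% higher and 9.35% lower. Against cisplatin it had Casp8 and Naip1 higher, where 12.4% did not overlap, 4.94% higher and 7.44% lower. Against brivanib it had 5 members higher and Ripk3 lower, where 23.2% did not overlap, 14.1% higher and 9.14% lower. Naip1 was the member whose brivanib difference turned sign with cisplatin without overlap on either side, as in 0.955% of genes, and no member did so for cisplatin without and with brivanib (0.906% of genes). The median log2 difference of the 10 members was 0.15 for cisplatin, -0.13 for brivanib and 0.28 for the combination against vehicle, beside 0.07, -0.01 and 0.04 over all genes tested. These comparisons share the vehicle libraries.

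Other genes of the same pathways were tested with the same fit, from 4 lists: 20 inflammasome sensors and adaptors, 16 caspases and pyroptosis effectors, 12 interleukin-1 family cytokines and receptors, and 32 genes of necroptosis and the death receptor complex. Of these 80 genes 60 were tested. Limma called 0 of 60 for cisplatin against vehicle (3 at an unadjusted p under 0.05), 1 for brivanib (10 unadjusted), 0 for the combination (9 unadjusted), 0 for the combination against cisplatin (3 unadjusted) and 4 for the combination against brivanib (14 unadjusted). For the difference between the brivanib effects it called 0 (5 unadjusted), and voom on recovered fragments called 2 in the combination against brivanib and 0 in each of the other 5 comparisons. Over all 14246 genes limma gave 2036, 1663, 2674, 960 and 3096 at an unadjusted p under 0.05 in the 5 pairwise comparisons, in the same order. For the difference between the brivanib effects this count was 1430. Nothing is read from the unadjusted counts of the pathway genes.

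Serpinb1a, which encodes an inhibitor of neutrophil serine proteases that also restrains inflammatory caspases, rose with brivanib. It was at 1.32, 1.29 and 1.61 FPKM in vehicle, 1.33, 1.51 and 1.18 in cisplatin, 3.17, 3.58 and 4.12 in brivanib and 1.02, 0.295 and 1.101 in the combination. Brivanib alone stood above all other libraries, which was not counted over all genes either. The brivanib difference was 0.94 ± 0.20 (limma adjusted p = 0.0341) and the combination was lower than brivanib by -1.39 ± 0.20 (adjusted p = 0.00738). The brivanib call was lost in 18 of 25 alternatives, among them those without vehicle 2, 3 or 5, cisplatin 1 or 2, or brivanib 2 or 5, with an adjusted p of 0.0107 to 0.519.

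Il33, an alarmin of the interleukin-1 family, was lower in the combination than in brivanib by -1.73 ± 0.42 (adjusted p = 0.0440). It was at 26.7, 5.50 and 21.6 FPKM in brivanib libraries 2, 3 and 5 and at 3.38, 3.99 and 4.07 FPKM in the combination, against 5.69 to 8.99 in vehicle and 3.25 to 5.51 in cisplatin. Brivanib 3 thus lay just below the vehicle libraries, far from the other two brivanib libraries. Nlrc5, a transactivator of MHC class I genes, rose to 11.8, 8.48 and 9.29 FPKM in the combination from 5.17, 5.52 and 4.23 FPKM in brivanib (0.86 ± 0.20, adjusted p = 0.0377). It was at 4.94 to 7.87 FPKM in vehicle and 6.07 to 9.10 in cisplatin. The calls of Il33 and Nlrc5 were lost in 18 of 26 and 13 of 26 alternatives.

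**Figure D5:**
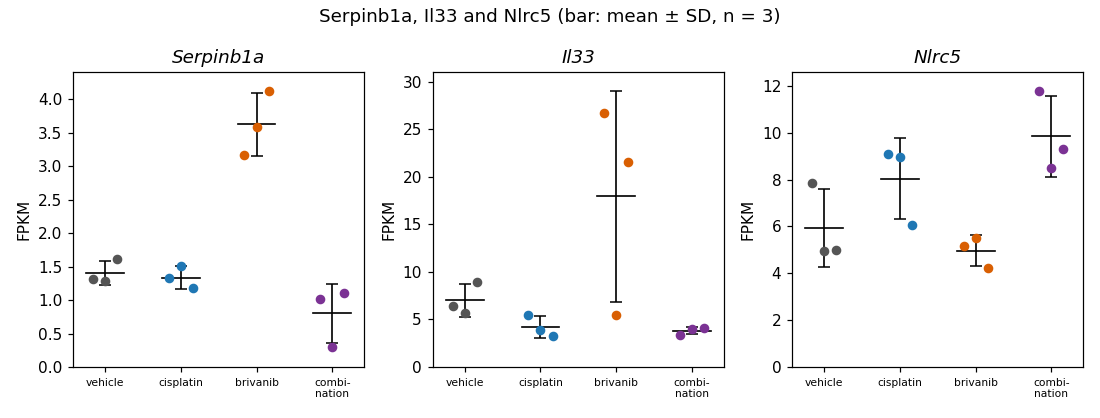
FPKM of Serpinb1a, Il33 and Nlrc5, each past the threshold in a comparison, in each library by group; the long line is the mean and the error bar the SD (n = 3). Serpinb1a is at 3.17 to 4.12 FPKM in brivanib and at most 1.61 FPKM elsewhere, and Nlrc5 is at 8.48 to 11.8 FPKM in the combination.

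Among the core partners of the members, no comparison passed the test. Aim2, a sensor of cytosolic DNA, was at 41.1 to 51.8 FPKM in vehicle and 50.4 to 71.1 in cisplatin. Pycard, the adaptor that links sensors to caspase-1, had a mean of 0.775 ± 0.0891 FPKM in vehicle and 1.66 ± 0.777 in brivanib (log2 difference 0.54, adjusted p = 0.327). Nlrp3 had 0.582 ± 0.106 FPKM in vehicle and 1.70 ± 1.09 in brivanib. Nlrc4, the partner of the NAIP proteins, was at 0 to 0.248 FPKM and was not tested. Il1b ranged from 1.64 to 34.0 FPKM over the 12 libraries, with 18.2, 2.46 and 34.0 FPKM in brivanib and 1.64, 2.33 and 2.86 FPKM in the combination (log2 difference -2.03, adjusted p = 0.182). Il18, Ripk1, Zbp1, Fadd and Cflar had adjusted p from 0.422 to 0.992 in all comparisons. The partners at the root of necroptosis were at 12.5 to 20.3 FPKM for the scaffold kinase Ripk1 and 5.83 to 15.96 FPKM for the nucleic acid sensor Zbp1.

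Of the genes with the smallest p in lists where no gene passed, cisplatin against vehicle gave Ninj1, which ruptures the membrane of dying cells, at 0.42 ± 0.13 (adjusted p = 0.185), Casp9 at 0.59 ± 0.25 (0.309), Nlrc3 at 0.42 ± 0.19 (0.352), Nlrc5 at 0.39 ± 0.20 (0.396), Il1rap at 0.44 ± 0.18 (0.290), Il1rn at 0.59 ± 0.39 (0.535), Otulin at 0.33 ± 0.15 (0.350) and Spata2 at 0.24 ± 0.12 (0.380). Brivanib against vehicle gave the adaptor Card9 at 0.78 ± 0.25 (0.203), the decoy receptor Il1r2 at 1.34 ± 0.50 (0.302), the interleukin-33 receptor Il1rl1 at -0.53 ± 0.19 (0.291), Traf5 at -0.55 ± 0.21 (0.327) and Birc2 at -0.35 ± 0.14 (0.347). The combination against vehicle gave Nlrc5 at 0.66 ± 0.20 (0.1002), Traf5 at -0.64 ± 0.21 (0.137), Ikbkg at 0.78 ± 0.27 (0.147), Nlrc3 at 0.50 ± 0.19 (0.189), Casp12 at 0.44 ± 0.18 (0.213), Serpinb1a at -0.45 ± 0.20 (0.259), Il1rap at 0.40 ± 0.18 (0.260) and Il1r2 at 0.89 ± 0.50 (0.373), all with limma adjusted p. Between the combination and brivanib the necroptosis list gave Spata2, an adaptor of the deubiquitinase CYLD, at 0.44 ± 0.12 (0.0593) and Cyld itself at -0.32 ± 0.10 (0.101). None of the genes in this paragraph passed the threshold in the comparison given here. The combination against cisplatin gave Nod1, Pycard, Serpinb1a, Ninj1, Il1rn, Il1r2, Ikbkg and Ppm1b, with adjusted p from 0.715 to 0.836. The difference between the brivanib effects gave Serpinb1a (0.0983) and Card9, Nlrc5, Il1rl1, Il18rap, Birc2 and Birc3, the last 6 with adjusted p from 0.456 to 0.626.

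Rescaling to equal totals moved the median difference of all genes to -0.34 for brivanib against vehicle. On that scale the brivanib difference was 0.24 for Ripk3, -0.98 for Casp4 and -0.01 for Casp8. With ribosomal-like features removed first, these were 0.46, -0.71 and 0.25. Adipocyte markers summed to 102 to 338 FPKM in the combination against 30.9 to 32.2 in vehicle. With their score as a covariate Naip1 differed by 1.77 and Casp8 by 0.53 between these groups. The values were 0.36 for Casp1, 0.43 for Casp4, -0.08 for Ripk3, 0.58 for Mlkl and -0.12 for Gsdmd. They were -0.0002 for Naip2, -0.13 for Naip5 and -0.52 for Naip6. The score was 0.873 to 0.893 in vehicle and 2.14 to 2.40 in the combination, without overlap, so these adjusted values are extrapolations. Without brivanib 5, brivanib differed from vehicle by 0.44 for Ripk3, -0.62 for Casp4 and 0.30 for Casp8, and the combination differed from brivanib by -0.73 for Ripk3 and 0.95 for Casp4.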

How the data were processed

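RNA was measured in 12 tumours, 3 per group. The authors sequenced on a BGISEQ-500, per the labels' design text, and deposited FPKM values per transcript; the submitters' processing notes name HISAT, Bowtie, Bowtie2 2.2.5 and RSEM 1.2.12. The notes list mm9 while the design text names mm10, and the coordinates in the deposited table are those of GRCm38. No strand setting or molecular identifier is given in the sources used here. Of the columns of per-sample values, 1 matched no sample and was not used, and 3 transcript lines with broken annotation text were dropped.

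Transcript FPKM values were summed to 53801 genes, and those with a mean of at least 1 FPKM over all libraries were tested (14246). Group means were fitted to log2(FPKM + 1) of the 12 libraries with limma 3.58.1 (R 4.3.3, 8 residual degrees of freedom, mean-variance trend), with two-sided p-values adjusted by Benjamini-Hochberg over all genes tested. In each library the deposited FPKM times transcript length moved in equal steps, and each value below 100 fragments was a whole number to within 0.01 (100%). Voom on these fragments called 8, 169, 69, 2 and 409 genes in the 5 pairwise comparisons and 5 for the interaction. It used the recovered totals, ribosomal-like features included. The median difference of all genes was then -0.30 for brivanib against vehicle and 0.27 for the combination against brivanib. Figures were drawn with matplotlib 3.10.9. The procedure was tested on simulated data.

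The 10 genes and the pathway lists were chosen with earlier results of these data known. All 10 are named, then the pathway genes past the threshold (up to 6 per list and comparison), or the 2 with the smallest p in a list without one, and 10 fixed partners. Naip3 and the isoforms were added after their values were seen. The alternatives were pseudocount, filter, scaling, voom, covariates for tissue markers, a replicate block, the most abundant transcript and each library left out. Replicates of a group correlated at 0.949 to 0.980 over genes. Promoter windows are from RefSeq (GRCm38.p6). Some results under the naming rule are not reported here.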

Additional observations from a re-analysis of the deposited data

Results flagged for a closer look

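Naip1 moved in opposite directions with brivanib in the absence and in the presence of cisplatin. Every brivanib library was below every vehicle library (-0.19 on the log2(FPKM + 1) scale), and every combination library was above every cisplatin library (0.90), a difference between the effects of 1.08. The brivanib difference is smaller than its SE of 0.27 and was 0.07 with the pan-leukocyte score as a covariate. That score did not overlap between brivanib and vehicle, so the adjusted value is an extrapolation. Limma did not call the difference between the effects (SE 0.38), and no p-value is given, since the gene was chosen with its values known. Such a reversal in either direction was shown by 0.955% of all genes.

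Serpinb1a had brivanib effects of 0.94 without and -0.40 with cisplatin, both without overlap of the libraries, and the difference between them was -1.34 (limma adjusted p = 0.0983). It did not pass the threshold, and the adjusted p was 0.0836 to 0.661 over 24 alternatives.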

How the results depend on the processing

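The count of other pathway genes past the threshold depended on the processing. For brivanib against vehicle it was 1, and it was 0 with a pseudocount of 0.1, a mean of at least 5 FPKM, no filter, equal totals, quantile normalization, ribosomal-like features removed, voom, the muscle, adipocyte or pan-leukocyte score as a covariate, or the replicate block, and 0 to 1 without single libraries. For the combination against vehicle it was 0, but 1 with no filter. For the combination against brivanib it was 4, but 2 with a mean of at least 5 FPKM, with no filter, with voom or with the most abundant transcript, and 0 with only the groups compared or the pan-leukocyte score. It was 1 to 4 without single libraries: 2 without vehicle 2, cisplatin 2 or cisplatin 3, and 1 without brivanib 5, combination 2 or combination 3.

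With the replicate block it was 1. The labels do not say that equal numbers pair the libraries. Correlations of deviations between same-numbered libraries ran from -0.157 to 0.213. No correlations of differently numbered libraries are given beside them, so a pairing cannot be judged from these values. Under the block 0 members were called in the combination against vehicle (0.246% of all genes) and 1, Naip1, against brivanib (1.18%).

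Of the alternatives in which each gene was tested, Naip1 was called against brivanib in 24 and against vehicle in 22 of 25. Ripk3 was called against brivanib in 16 of 25, Casp4 against brivanib in 23 of 26 and Casp8 against vehicle in 15 of 26. The alternatives refit the same libraries, and the members were chosen with results of these data known, so nothing is read from these counts. With the adipocyte score as a covariate 0 members were called in the combination against vehicle (0.0211% of all genes). With the pan-leukocyte score 0 were called against brivanib (0.0562%), at differences of 1.73 for Naip1, 1.104 for Casp4 and -0.74 for Ripk3. These differences are extrapolations, since that score did not overlap between the combination and brivanib. Without vehicle 3, 0 were called in the combination against vehicle (0.147%). Without combination 3 only Naip1 was called, against vehicle (50 of 14246 genes) and against brivanib (61 of 14246 genes). With the muscle score the members called against brivanib were Naip1, Casp1 and Casp4 and no longer Ripk3 (548 of 14246 genes). The most abundant transcript ended the Casp8 call (0.12). Of 1532 member values under alternatives, 1432 moved by less than the spread between replicates. Part of these values could not move, since leaving out a library of a group outside a pairwise comparison leaves its difference unchanged. The tally is therefore no measure of stability.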
